A study of Mus musculus with 9 samples.

Results

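Kupffer cell and macrophage barcodes were taken from single-cell libraries of 9 mouse livers. A barcode, the tag shared by all transcripts captured in a droplet, was included when it had at least 200 genes and at least 4 unique molecular identifiers (UMIs) summed over Clec4f, Cd5l, Vsig4, Timd4, C1qa, C1qb, C1qc, Marco, Csf1r and Fcna. These UMIs had to come from at least 3 of the 10 genes and to exceed the sum over the endothelial genes Ptprb, Kdr, Stab2, Clec4g, Dnase1l3 and Fcgr2b. The rule found 195 barcodes among 44898 with at least 200 genes, out of 48000 deposited. Since raw counts of these 16 genes chose the barcodes, their levels here against the other 44703 barcodes are a description, and no test of that contrast was made.

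The livers came from male C57BL/6 mice, 8 weeks of age, and each library is 1 mouse. Mice 3, 6 and 9 had received AAVrh.10mCherry intravenously, an adeno-associated virus vector named for the red fluorescent protein mCherry. Mice 2, 5 and 8 had received AAVrh.10Null by the same route, and mice 1, 4 and 7 had received phosphate-buffered saline (PBS). The labels state neither the dose, the interval to collection and the promoter of the vector, nor what the Null vector carried. The question the labels pose is how vector injection alters the cells of the liver.

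Kupffer cells are the resident macrophages of the liver and lie in the sinusoids, where they take up particles, microbes and ageing red cells from portal blood. Clec4f encodes a C-type lectin that in mice marks Kupffer cells, Cd5l a secreted scavenger-receptor-family protein, and Vsig4 and Timd4 receptors for complement fragments and phosphatidylserine. C1qa, C1qb and C1qc encode the chains of complement C1q, Marco a scavenger receptor, Fcna a ficolin and Csf1r the receptor for the growth factor that keeps macrophages alive.

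Library totals ran over 1083091 to 11220152 UMIs, with mouse 7 (PBS) the lowest. Mouse 7 kept 550 of 3600 deposited barcodes at 200 genes. It held 2 macrophage barcodes with 660 UMIs in all, so it entered the shares of barcodes but not the summed expression, where PBS is mice 1 and 4. The summed macrophage libraries of the other 8 mice held 12128 to 59853 UMIs from 11 to 46 barcodes. Pairs of libraries shared 1 to 10 barcode sequences, and no macrophage barcode was among them.

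The rule genes themselves describe the set and are no evidence for its label. The 195 barcodes had a median of 1149 UMIs, 701 genes, 17 UMIs of the 10 macrophage genes and 6 of those genes. C1qb was detected in 166 barcodes, C1qc in 162, Clec4f in 159 and Cd5l in 158, whereas Timd4 was seen in 70 and Marco in 34. Clec4f was detected in 0.843% of the other barcodes, and the 195 held 64.9% of all its UMIs. No endothelial rule UMI was present in 166 of the 195, and the highest endothelial sum was 3, a sum that the rule itself keeps low. At least 2 endothelial genes outside the rule, a list that includes Mrc1, were present in 23 barcodes (11.8%, against 1.91% of the other barcodes). For stellate and fibroblast genes it was 6 (3.08%, against 1.23%). At the edge of the rule, the 18 barcodes with 4 rule UMIs had 0.269% of their UMIs from 20 general macrophage genes outside the rule. The 18 barcodes left out for holding 3 rule UMIs from 3 genes had 0.299%, so these genes did not set the 2 sides of the threshold apart.

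The upstream sequences of the 3 rule genes with the most UMIs in these barcodes are shown because their transcripts define the set. They are the 250 bases before the annotated start in RefSeq (GRCm38.p6, the assembly that mm10 denotes), 5′ to 3′ on the coding strand. Capitals mark GAGGAA or its reverse complement TTCCTC, the core letters of the motif of PU.1, the macrophage transcription factor encoded by Spi1. The Clec4f window lies at chr6:83656117-83656366 (minus strand), that of C1qb at chr4:136886201-136886450 (minus strand) and that of Cd5l at chr3:87357631-87357880 (plus strand).
Clec4f: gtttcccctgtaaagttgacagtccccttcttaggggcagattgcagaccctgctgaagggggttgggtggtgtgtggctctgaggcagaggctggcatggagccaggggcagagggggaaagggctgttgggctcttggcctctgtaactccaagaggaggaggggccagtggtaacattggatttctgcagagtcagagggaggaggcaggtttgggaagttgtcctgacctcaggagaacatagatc
C1qb: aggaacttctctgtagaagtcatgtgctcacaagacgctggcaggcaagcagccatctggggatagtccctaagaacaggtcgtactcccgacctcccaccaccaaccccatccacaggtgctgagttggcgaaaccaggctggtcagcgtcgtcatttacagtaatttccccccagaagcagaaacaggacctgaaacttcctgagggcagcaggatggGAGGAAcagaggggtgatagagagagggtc
Cd5l: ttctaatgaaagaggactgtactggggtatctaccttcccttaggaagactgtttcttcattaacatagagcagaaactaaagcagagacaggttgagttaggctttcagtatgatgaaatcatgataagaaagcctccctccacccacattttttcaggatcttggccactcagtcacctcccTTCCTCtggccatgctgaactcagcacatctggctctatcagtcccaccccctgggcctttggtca
Promoter entries were matched for 8 of the 10 rule genes, and 6 of the 8 windows held GAGGAA on either strand. The motif was present in 23.3% of the 32851 windows of this length in the table. The Cd5l and C1qb windows held 1 match each and the Clec4f window held none, which describes these letters in these windows and not binding.

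Many genes outside the rule were concentrated in the same barcodes. Lyz2, the lysozyme of macrophages and neutrophils, reached 4698 CPM, the usual scaling of UMIs by the total of all genes, in the pooled macrophage barcodes, against 20.4 CPM in all other barcodes. Wfdc17, a secreted protein of the whey acidic protein family, reached 3890 CPM against 9.85 CPM. The cysteine protease Ctss reached 2696 CPM against 7.46 CPM. Tmsb4x, an actin-binding peptide, reached 7945 CPM against 106 CPM. The next genes by ratio included the class II antigen-presentation genes Cd74, H2-Ab1, H2-Aa and H2-Eb1, properdin (Cfp), the adaptors Tyrobp and Fcer1g, and the oxidase subunits Cybb and Cyba. Of the 20 genes with the highest ratios, 19 were higher in the macrophage barcodes of 8 of 8 mice. The exception was Slpi, higher in 2 mice and carried by 4 barcodes.

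All 20 Kupffer identity genes outside the rule were above the other barcodes, among them Adgre1 (F4/80) with 287 CPM, the iron exporter Slc40a1 with 953 CPM, the haemoglobin receptor Cd163 with 318 CPM and the folate receptor Folr2 with 448 CPM. The other barcodes held 0.834 CPM of Adgre1, 55.7 CPM of Slc40a1, 1.02 CPM of Cd163 and 1.44 CPM of Folr2. All 20 general macrophage genes outside the rule were likewise above the other barcodes. In counts over lists, 22 of 22 scavenger receptor and phagocytosis genes and 26 of 30 lysosome genes were higher than in the other barcodes. The same held for 9 of 10 MHC class II genes and 28 of 31 inflammatory and NF-kB target genes. Type I interferon genes were higher in 38 of 38 and cell-cycle genes in 18 of 20. Of 14 complement genes, many of which hepatocytes transcribe, 6 were higher. Over all 26388 listed genes, with no UMI minimum as in these lists, 31.6% were higher. Over all genes with at least 100 UMIs in all barcodes it was 58.3%. The counts over lists were not tested against these shares and by themselves say little about a list.

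Several defining markers of other blood cells were not detected. Cd3d, Cd3e, Cd3g and Nkg7 (T and NK cells), Cd79a (B cells), S100a8, S100a9 and Ly6c2 (neutrophils and inflammatory monocytes) and Flt3, Xcr1 and Zbtb46 (dendritic cells) had 0 UMIs in all 195 barcodes, where a gene that a library does not list was taken as 0. Ccr2, the receptor of monocytes entering tissue, had 9 UMIs in 4 barcodes, Plac8 had 45 UMIs in 27, Cx3cr1 had 7 in 5, and the dendritic marker Clec9a had 5 in 5. Other markers of the same lists were also found at low counts. The B cell genes Ms4a1 and Cd79b had 3 UMIs in 1 barcode and 2 in 2, and S100a4 had 4 in 3. Csf3r, F13a1 and Itgax had 1 UMI each. No barcode carried at least 2 genes of the T and NK list (0.512% of the other barcodes did) or of the neutrophil list (0.00447%). At such shares, 0 of 195 says little. At least 2 genes of the B and plasma list were present in 2 barcodes (1.03%, against 0.239% of the other barcodes). At least 2 genes of the monocyte list were present in 82 of the 195 (42.1%, against 14.3% of the other barcodes) and at least 2 of the dendritic list in 54 (27.7%, against 4.62%). Proliferation genes were seen in a minority, with Mki67 in 8 barcodes, Top2a in 3 and Hmgb2 in 14. At least 2 cell-cycle genes were present in 14 barcodes (7.18%), against 0.311% of the other barcodes.

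**Figure D1:**
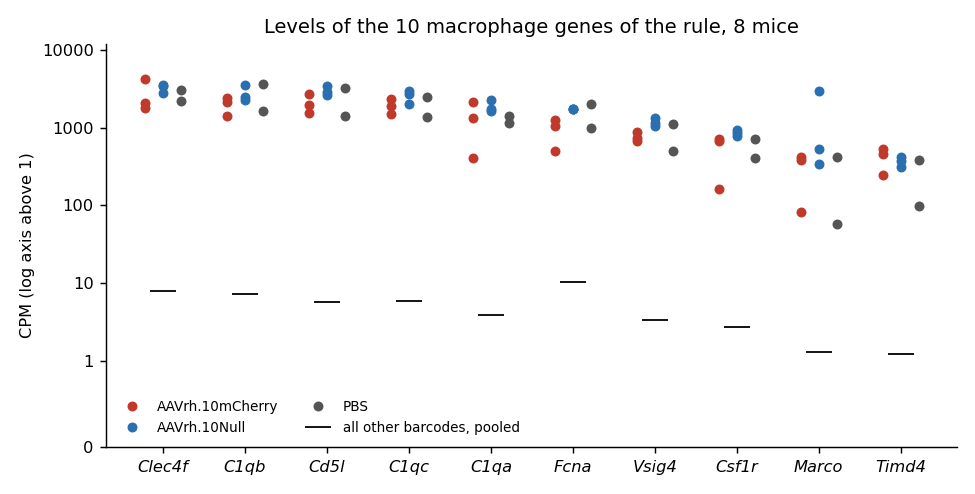
CPM (vertical axis, log scale above 1) of the 10 macrophage genes of the rule in the summed macrophage barcodes of each of 8 mice (points, coloured by group), with the pooled level in all other barcodes as a black bar. Each gene lies far above its bar in every mouse shown, Clec4f, C1qb, Cd5l and C1qc are the highest, and Marco spreads most, with 2997 CPM in mouse 5.

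The levels of the rule genes differed several-fold between mice. Clec4f was at 4201, 1814 and 2096 CPM in AAVrh.10mCherry mice 3, 6 and 9, at 3554, 3471 and 2799 CPM in AAVrh.10Null mice 2, 5 and 8, and at 2192 and 3108 CPM in PBS mice 1 and 4. C1qb was at 2130, 1402 and 2390 CPM in the AAVrh.10mCherry mice, 2520, 2287 and 3594 CPM in the AAVrh.10Null mice and 1668 and 3609 CPM in the PBS mice. The groups overlapped for both genes. Marco was at 2997 CPM in mouse 5 and at 58.2 to 530 CPM in the other 7, and a single barcode held 32 of the 38 Marco UMIs of mouse 5.

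Hepatocyte transcripts were present in nearly all of these barcodes. Alb, the serum albumin gene, was detected in 194 of the 195, as were Apoa1 and Ttr. A list of 32 hepatocyte genes made up 8.97% to 19.4% of macrophage UMIs in the 8 mice with summed libraries, and 14.6% pooled against 25.5% in the other barcodes. Of the 32 genes, 0 were above the other barcodes. The share moved with the rule count: barcodes with 4 to 9 rule UMIs held 22.3% hepatocyte UMIs, those with 10 to 19 held 14.3% and those with 20 or more held 10.1%. General macrophage genes outside the rule ran the other way, at 0.537%, 1.82% and 2.47% of UMIs in the same 3 classes, and MHC class II genes at 0.232%, 0.733% and 0.944%. The source of this RNA was not tested.

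**Figure D2:**
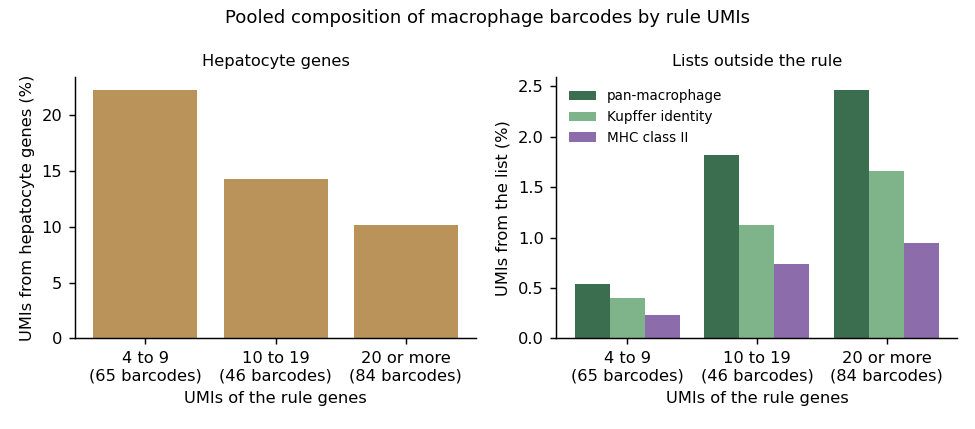
Percent of pooled UMIs from hepatocyte genes (left panel) and from 3 lists outside the rule (right panel) in macrophage barcodes with 4 to 9, 10 to 19 and 20 or more UMIs of the rule genes (65, 46 and 84 barcodes). Bars are pooled values without error bars, and the hepatocyte share falls across the classes while the other lists climb.

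The mix of these classes differed between mice. In AAVrh.10mCherry mice 3, 6 and 9, barcodes with 20 or more rule UMIs made up 70.0%, 9.09% and 47.1% of the macrophage barcodes. In AAVrh.10Null mice 2, 5 and 8 they made up 26.3%, 41.7% and 65.4%, and in PBS mice 1 and 4 they made up 39.1% and 43.5%. PBS mouse 7 had 0 of 2. Among the 8 mice with summed libraries mouse 6 was the lowest, with 1 of 11, and it also had the highest mitochondrial share, 15.98% of macrophage UMIs against 2.06% to 8.93% in the other 7.

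Barcodes with and without Clec4f are set side by side as a description. The 159 barcodes with a Clec4f UMI had 0.655% of UMIs from MHC class II genes and 0.132% from 18 monocyte-list genes. The 36 without one had 0.857% and 0.395%, with a median of 8 rule UMIs against 19. The class II difference was not shared by all mice: the level was higher without Clec4f in mice 1, 3, 6, 8 and 9 and lower in mice 2, 4 and 5. A barcode of mouse 1 with 115 class II UMIs and a barcode of mouse 3 with 93 held much of the 384 class II UMIs found without Clec4f. Of the 177 monocyte-list UMIs without Clec4f, 75 were Fn1 UMIs in 8 barcodes that are described further on. At a median of 1173 UMIs with Clec4f and 1063.5 without, a missing UMI does not show a missing transcript. MHC class II genes were broadly detected: 133 of the 195 carried at least 2 of them, against 0.472% of the other barcodes.

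The share of macrophage barcodes per liver was 0.500%, 0.197% and 0.266% in AAVrh.10mCherry mice 3, 6 and 9, 0.528%, 0.300% and 0.362% in AAVrh.10Null mice 2, 5 and 8, and 0.443%, 0.959% and 0.364% in PBS mice 1, 4 and 7. PBS mouse 4 was the highest and the groups overlapped. The mean was 0.321% ± 0.159 in AAVrh.10mCherry mice, 0.397% ± 0.118 in AAVrh.10Null mice and 0.588% ± 0.323 in PBS mice (SD, n = 3 each). The exact two-sided permutation test gave p = 0.3 for AAVrh.10mCherry minus PBS and p = 0.5 both for AAVrh.10Null minus PBS and for AAVrh.10mCherry minus AAVrh.10Null. The smallest p that 3 mice against 3 allow is 0.1. For the 6 vector-injected mice against the 3 PBS mice the same exact test gave p = 0.214 (smallest possible 0.0238). With every barcode thinned to 500 UMIs the shares were 0.390%, 0.0922% and 0.195% in AAVrh.10mCherry mice, 0.425%, 0.246% and 0.315% in AAVrh.10Null mice and 0.191%, 0.697% and 0% in PBS mice. Thinning left out 423 of the 550 barcodes of mouse 7, both of its macrophage barcodes included. Without PBS mouse 4 the difference of AAVrh.10Null minus PBS shrank to -0.00645 percentage points. How many macrophages survived tissue dissociation cannot be told apart from how many the liver held.

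**Figure D3:**
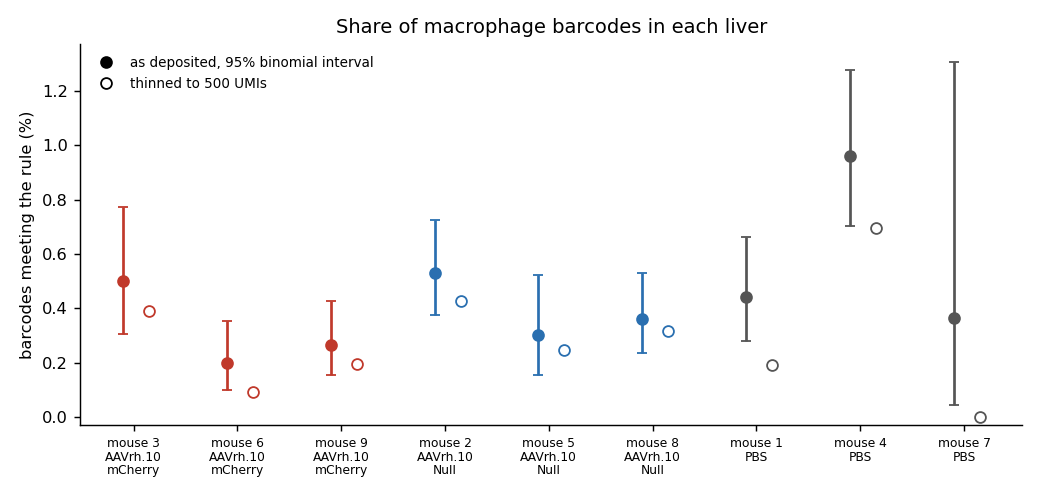
Percent of barcodes with at least 200 genes that met the macrophage rule in each liver, as deposited (filled points, with exact 95% binomial intervals that cover counting error only) and after thinning to 500 UMIs per barcode (open points). PBS mouse 4 stands highest at 0.959%, and the points of the 3 groups overlap.

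Transgene transcripts were detected in macrophage barcodes of all 3 AAVrh.10mCherry mice. In mice 3, 6 and 9 they numbered 113, 47 and 24 UMIs, or 3343, 3875 and 1006 CPM, in 19 of 20, 9 of 11 and 11 of 17 barcodes. The macrophage barcodes of AAVrh.10Null mice held 0 UMIs, and those of PBS mice held 1, in mouse 1, whose other barcodes held 24.4 CPM. The other barcodes of AAVrh.10Null mouse 5 held 22.7 CPM and those of AAVrh.10Null mouse 8 held 1 UMI. The AAVrh.10mCherry mice lay above all others without overlap. By edgeR's quasi-likelihood test mCherry had a log2 change of 7.78 ± 0.94 (SE) for AAVrh.10mCherry minus PBS (adjusted p = 0.000409) and 9.50 ± 1.10 for AAVrh.10mCherry minus AAVrh.10Null (adjusted p = 0.000234). It passed the low-count filter only through the AAVrh.10mCherry mice, so these p add nothing to the counts. The pooled level was 294-fold that of the PBS mice, with an exact counting interval of 52.1 to 11666 because the PBS count is 1. Against the AAVrh.10Null mice it was at least 69.7-fold higher, with 3 UMIs over the group as floor.

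In the same livers the other barcodes held more mCherry than the macrophage barcodes did. The macrophage level was 0.418, 0.630 and 0.559 times that of the other barcodes in mice 3, 6 and 9, where the other barcodes held 8005, 6156 and 1800 CPM. The corresponding ratios for Alb were 0.434, 0.546 and 0.521, and the median ratios over the measured hepatocyte genes were 0.492, 0.580 and 0.545. In mouse 3, 5 of 31 hepatocyte genes had a lower ratio than mCherry, in mouse 6 it was 20 of 28, and in mouse 9 it was 18 of 31. Sets of 500 endothelial and 184 T and NK barcodes, picked by rules of the same form, gave mCherry ratios of 0.615, 0.428 and 0.762 and of 0.582, 0.406 and 0.801 in mice 3, 6 and 9. Alb ratios were 0.619, 0.399 and 0.551 in the endothelial and 0.646, 0.395 and 0.782 in the T and NK barcodes. The mCherry ratio of the macrophage barcodes thus fell within the spread of hepatocyte-gene ratios in all 3 mice. Transcription of mCherry in the macrophages themselves cannot be told apart here from RNA of other cells.

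**Figure D4:**
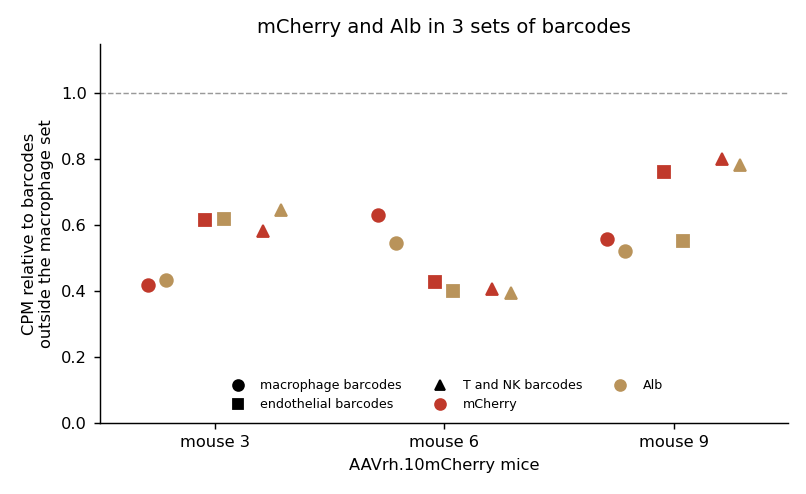
Level of mCherry (red) and Alb (brown) in macrophage, endothelial and T and NK barcodes, as a ratio of CPM to that of all barcodes outside the macrophage set (vertical axis, 1 marked by a dashed line), in AAVrh.10mCherry mice 3, 6 and 9. Macrophage points are circles: mCherry stood at 0.418, 0.630 and 0.559 and Alb at 0.434, 0.546 and 0.521.

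Igkv3-12, an immunoglobulin light chain variable segment, had 3, 4 and 3 UMIs in macrophage barcodes of AAVrh.10Null mice 2, 5 and 8. It had 0 UMIs in those of all 3 AAVrh.10mCherry mice and of all 3 PBS mice. The pooled AAVrh.10Null level was at least 4.68-fold higher than in PBS mice. It was not among the genes tested, and in the other barcodes of mice 2, 5 and 8 it stood at 124, 247 and 233 CPM, against 79.6, 316 and 104 CPM in the macrophage barcodes.

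Apart from the transgene, few genes passed the test between groups. Summed macrophage counts of 8 mice were fitted over 666 genes that passed a low-count filter, with a biological coefficient of variation of 0.323. CPM values from here on are on the same scale but over these genes only, after TMM scaling. For AAVrh.10mCherry minus PBS, 1 gene passed an adjusted p of 0.05, mCherry itself (0.15% of genes tested). For AAVrh.10mCherry minus AAVrh.10Null 2 passed (0.3%), mCherry and Slpi. For AAVrh.10Null minus PBS 0 passed (0%), with 46 genes at an unadjusted p under 0.05, and for both vectors minus PBS 0 passed (0%), with 26. DESeq2 called 1 gene each in the AAVrh.10mCherry contrasts and 0 in the others.

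The counts of calls depended on single mice. For AAVrh.10Null minus PBS, 5, 2, 1, 8, 3, 6, 1 and 5 genes passed without mouse 1, 2, 3, 4, 5, 6, 8 and 9. For AAVrh.10mCherry minus AAVrh.10Null it was 5 without mouse 1, 1 without mouse 3, 5 without mouse 4 and 4 without mouse 8. For AAVrh.10mCherry minus PBS it was 2 without mouse 1 and 2 without mouse 4, and for both vectors minus PBS 1 without mouse 1 and 1 without mouse 8. Leaving out a PBS mouse leaves that group with 1 library, assumed to vary like the others.

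The genes nearest to a call in AAVrh.10Null mice were Slpi, Pf4 and Saa3. Slpi, a secreted protease inhibitor, had 56, 0 and 116 UMIs in AAVrh.10Null mice 2, 5 and 8 and 0 in the macrophage barcodes of all AAVrh.10mCherry and PBS mice. The test called it lower in AAVrh.10mCherry than in AAVrh.10Null mice (log2 change -9.03 ± 1.73 SE, edgeR adjusted p = 0.0437), but it passed the low-count filter only through mice 2 and 8, so this p adds nothing to the counts. The difference is a pooled level at least 50.4-fold lower against the floor of 3 UMIs over the group. That call was lost without mouse 3 (adjusted p = 0.327), without mouse 9 (0.109) and by DESeq2 (0.997). The groups overlapped, since mouse 5 also had 0. For AAVrh.10Null minus PBS the edgeR adjusted p of Slpi was 0.0615 and lay on both sides of 0.05 over the alternatives. The same limit of the filter applies, so this value adds nothing to the counts either. Pf4, a platelet chemokine also made by macrophages, had 24, 3 and 24 UMIs in AAVrh.10Null mice 2, 5 and 8. PBS mice 1 and 4 had 2 and 3 UMIs (log2 change 3.73 ± 0.79 SE, edgeR adjusted p = 0.064). Outside mice 2 and 8, only AAVrh.10mCherry mouse 9 reached the filter's level for Pf4, with 11 UMIs in 1 barcode. Pf4 thus passed the low-count filter only through vector-injected mice, so its p adds nothing to the counts. Saa3, an acute-phase protein made by macrophages, had 52, 19 and 0 UMIs in AAVrh.10Null mice 2, 5 and 8. PBS mice 1 and 4 had 1 and 1 (log2 change 5.45 ± 1.21 SE, edgeR adjusted p = 0.064). The 52 UMIs lay in 3 barcodes and the 19 in 1. Saa3 passed the low-count filter only through mice 2 and 5, so its p adds nothing to the counts. Over the alternatives the adjusted p of Pf4 and Saa3 lay on both sides of 0.05.

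These genes came from a handful of barcodes, which were singled out after their values were seen. Of the 195, 8 carried at least 4 UMIs over Slpi, Saa3, Retnla, Prg4 and Alox15, of which Prg4 and Alox15 are known from mouse peritoneal macrophages. They were 1 of 17 macrophage barcodes in AAVrh.10mCherry mouse 9, 3 of 38 in AAVrh.10Null mouse 2, 1 of 12 in mouse 5 and 3 of 26 in mouse 8, and 0 of 71 in PBS mice. Together they held all 172 Slpi UMIs and all 89 Retnla UMIs of the set, 76 of 81 Saa3 UMIs, all 22 Alox15 UMIs and 73 of 77 Prg4 UMIs. They also held 53 Pf4 UMIs, against 17 in the other members. Having no Clec4f UMI was part of how the 8 were defined, so their lack of Clec4f is no result. No barcode with Clec4f had more than 3 UMIs of the 5 genes. None of the 8 had a UMI of Vsig4, itself a rule gene, which was detected in 117 of the 195. The 8 were not compared with the other members lacking Clec4f. Their UMIs of the other rule genes were 39 of C1qb, 37 of Marco, 28 of C1qc, 22 of Fcna and 19 of Cd5l. C1qa had 9, Timd4 had 6 and Csf1r had 1.

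The 8 barcodes were unlike each other. In mouse 2 the deepest held 55 Slpi, 30 Saa3 and 17 Prg4 UMIs among 2032, and another held 20 Saa3, 10 Prg4 and 1 Gata6 UMI. In mouse 8 the deepest held 82 Slpi, 20 Prg4 and 127 Lyz2 UMIs, another 34 Slpi and 19 Pf4, and the third 68 Retnla with 25 MHC class II UMIs. The barcode of mouse 5 held 32 Marco, 20 Retnla and 19 Saa3 UMIs. That of mouse 9 held 20 Prg4 and 11 Pf4 UMIs. Hepatocyte genes made up 4.04% to 7.72% of their UMIs, and the barcode of mouse 9 held no mCherry UMI. Without these 8 barcodes, 1 gene was called for each AAVrh.10mCherry contrast and 0 for AAVrh.10Null minus PBS and for both vectors minus PBS. With 1 to 3 barcodes a mouse, more such cells in a group and their chance capture cannot be told apart.

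**Figure D5:**
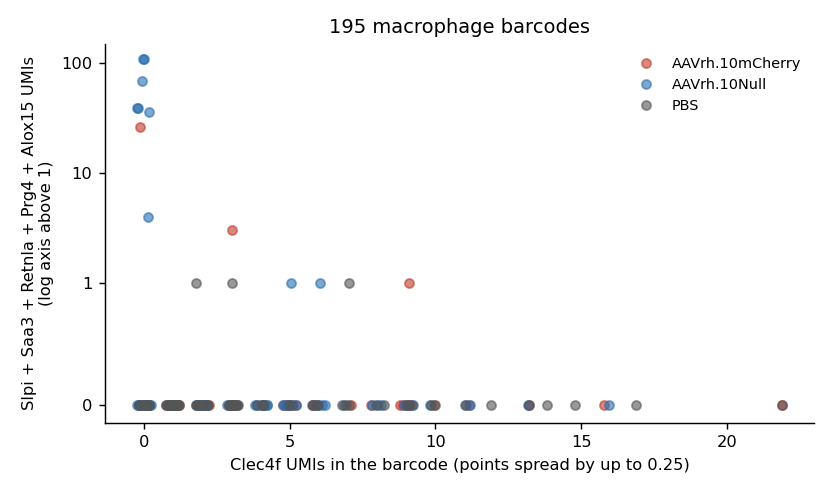
Clec4f UMIs (horizontal axis) and summed UMIs of Slpi, Saa3, Retnla, Prg4 and Alox15 (vertical axis, log above 1) in each of the 195 macrophage barcodes, coloured by group. The 8 barcodes singled out, by definition at 0 Clec4f UMIs and at least 4 UMIs of the 5 genes, are 7 from AAVrh.10Null mice and 1 from an AAVrh.10mCherry mouse. No barcode with Clec4f exceeds 3.

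The genes nearest to a call among those lower in AAVrh.10Null than in PBS mice are known hepatocyte transcripts. Tdo2, an enzyme of tryptophan breakdown, had a log2 change of -1.31 ± 0.44 (SE) and Ass1, a urea-cycle enzyme, one of -1.45 ± 0.52, both with an edgeR adjusted p of 0.598. Over the 31 hepatocyte-list genes tested, the median log2 change was -0.57 for AAVrh.10Null minus PBS, with 29 below 0, beside a median of 0.03 over all 666 genes. For AAVrh.10mCherry minus PBS it was -0.39, with 29 below 0, beside 0.02. None of the 31 passed in either contrast. Hepatocyte genes made up 12.4% ± 1.67 of macrophage UMIs in AAVrh.10mCherry mice (SD, n = 3), 12.1% ± 2.72 in AAVrh.10Null mice (n = 3) and 17.8% ± 2.34 in PBS mice (n = 2). The exact two-sided permutation test of both vectors against PBS gave p = 0.0714, the smallest that 6 mice against 2 allow, and 0.952 after adjustment over 32 such tests.

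Other hepatocyte-made transcripts lay on both sides in AAVrh.10mCherry mice. Gstp1, a glutathione transferase, averaged 848 ± 160 CPM in AAVrh.10mCherry mice, 1886 ± 1147 CPM in AAVrh.10Null mice (SD, n = 3 each) and 2904 ± 815 CPM in PBS mice (n = 2), and the 3 AAVrh.10mCherry mice lay below both PBS mice. Its log2 change for AAVrh.10mCherry minus PBS was -1.82 ± 0.47 (SE, edgeR adjusted p = 0.377), and it passed without PBS mouse 4 (adjusted p = 0.0471). Orm1, an acute-phase protein, averaged 489 ± 170 CPM in AAVrh.10mCherry mice, 954 ± 426 CPM in AAVrh.10Null mice and 1562 ± 157 CPM in PBS mice. Mbl2, a mannose-binding lectin, averaged 1162 ± 138 CPM in AAVrh.10mCherry mice, 578 ± 117 CPM in AAVrh.10Null mice and 413 ± 16.9 CPM in PBS mice, with a log2 change of 1.45 ± 0.42 for AAVrh.10mCherry minus PBS (SE, edgeR adjusted p = 0.505). For both vectors minus PBS the genes nearest to a call on the higher side were Pf4, Prg4 and Crip1, in that order. Pf4 and Prg4 passed the low-count filter only through vector-injected mice 2, 8 and 9, so their p add nothing to the counts. The 8 barcodes described above held 73 Prg4 UMIs, and the other macrophage barcodes held 4. Crip1, a LIM-domain protein, averaged 703 ± 280 CPM in AAVrh.10mCherry mice, 1748 ± 432 CPM in AAVrh.10Null mice and 359 ± 271 CPM in PBS mice. Its log2 change was 1.60 ± 0.47 (SE, edgeR adjusted p = 0.725).

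Macrophage identity genes stood mostly above 0 in the AAVrh.10Null contrast, beside that lower hepatocyte share. All 14 tested Kupffer identity genes outside the rule were above 0 for AAVrh.10Null minus PBS (median log2 change 0.70), as were 14 of 16 general macrophage genes (0.46). For AAVrh.10mCherry minus PBS 10 of 14 (0.37) and 9 of 16 (0.09) were above 0, and none of these genes passed in any contrast. Lyz2 averaged 6119 ± 3731 CPM in AAVrh.10mCherry mice, 11200 ± 4796 CPM in AAVrh.10Null mice (SD, n = 3 each) and 4844 ± 368 CPM in PBS mice (n = 2). Much of the AAVrh.10Null level lay in few barcodes, since 1 barcode held 127 of the 273 Lyz2 UMIs of mouse 8. The 8 barcodes described above held 319 Lyz2 UMIs, against 908 in the other macrophage barcodes. Slc40a1 averaged 2371 ± 512 CPM in AAVrh.10mCherry mice, 1468 ± 96.2 CPM in AAVrh.10Null mice and 1203 ± 2.47 CPM in PBS mice. Its log2 change for AAVrh.10mCherry minus PBS was 0.95 ± 0.38 (SE, edgeR adjusted p = 0.992). How far the hepatocyte share sets these levels was not tested.

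Genes of the response to virus gave no call. Only 2 of 38 type I interferon genes and 1 of 22 nucleic acid sensing genes passed the low-count filter. Ifitm3, which restricts entry of viruses, averaged 1509 ± 692 CPM in AAVrh.10mCherry mice, 2673 ± 269 CPM in AAVrh.10Null mice and 2289 ± 18.9 CPM in PBS mice (SD, n = 3, 3 and 2). The whole list made up 0.571%, 0.157% and 0.361% of macrophage UMIs in AAVrh.10mCherry mice 3, 6 and 9, 0.485%, 0.544% and 0.480% in AAVrh.10Null mice 2, 5 and 8, and 0.326% and 0.525% in PBS mice 1 and 4. Mouse 6 was lowest and the groups overlapped. Exact two-sided permutation tests gave p = 1 for AAVrh.10mCherry minus PBS and p = 0.6 for AAVrh.10Null minus PBS, where the smallest possible is 0.2.

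MHC class II transcripts varied more between mice than between groups. They made up 1.13%, 0.206% and 0.683% of macrophage UMIs in AAVrh.10mCherry mice 3, 6 and 9, 0.400%, 0.505% and 0.515% in AAVrh.10Null mice 2, 5 and 8, and 0.421% and 1.08% in PBS mice 1 and 4. The exact two-sided permutation p was 1 for AAVrh.10mCherry minus PBS and 0.6 for AAVrh.10Null minus PBS. Among single genes, 4 of the 5 tested were below 0 for AAVrh.10Null minus PBS (median log2 change -0.60) and 3 of 5 for AAVrh.10mCherry minus PBS (-0.03), and none passed.

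Inflammatory genes and pattern receptors were also without a call. Ccl6, a macrophage chemokine, averaged 647 ± 75.7 CPM in AAVrh.10mCherry mice, 1655 ± 115 CPM in AAVrh.10Null mice (SD, n = 3 each) and 630 ± 276 CPM in PBS mice (n = 2). Its log2 change was -1.34 ± 0.40 (SE) for AAVrh.10mCherry minus AAVrh.10Null, with an edgeR adjusted p of 0.518. Clec7a, the beta-glucan receptor dectin-1, averaged 1133 ± 516 CPM in AAVrh.10mCherry mice, 645 ± 201 CPM in AAVrh.10Null mice and 288 ± 123 CPM in PBS mice. Its log2 change for AAVrh.10mCherry minus PBS was 1.94 ± 0.52 (SE, edgeR adjusted p = 0.377). All 4 tested inflammatory and NF-kB target genes were above 0 in both vector contrasts with PBS, with medians of 0.51 for AAVrh.10mCherry and 0.56 for AAVrh.10Null, against 0.02 and 0.03 over all genes.

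Among the remaining lists, 15 of 16 lysosome genes were above 0 for AAVrh.10Null minus PBS (median log2 change 0.28) and 10 of 16 for AAVrh.10mCherry minus PBS (0.02). Lpl, lipoprotein lipase, had a log2 change of 1.37 ± 0.48 for AAVrh.10Null minus PBS (SE, edgeR adjusted p = 0.598). Of the 4 immediate early genes tested, which cell isolation is known to induce, all 4 were above 0 for AAVrh.10mCherry minus PBS (0.60) and 3 were below 0 for AAVrh.10Null minus PBS (-0.39). All 8 mitochondrially encoded genes were above 0 in both contrasts, with medians of 0.55 for AAVrh.10mCherry and 0.73 for AAVrh.10Null. None of these passed.

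Whether macrophage barcodes differed between groups in another way than the rest of the same livers was tested with an interaction term over 666 genes and 8 mice. By edgeR 0 genes passed in any of the 4 contrasts (0% each). At an unadjusted p under 0.05 there were 15 for AAVrh.10mCherry minus PBS, 96 for AAVrh.10Null minus PBS, 51 for both vectors minus PBS and 28 for AAVrh.10mCherry minus AAVrh.10Null, and DESeq2 was not run on this term. The smallest edgeR adjusted p was that of Slpi in AAVrh.10Null minus PBS (0.0628). Lyz2 (2.10 ± 0.52 SE on the log2 scale) and Saa3 (5.92 ± 1.46) followed there on the higher side. Malat1 (-1.28 ± 0.31) and Tdo2 (-1.42 ± 0.36) were on the lower side, and all 4 had an edgeR adjusted p of 0.098. Of the 273 Lyz2 UMIs of mouse 8, 127 lay in 1 barcode. Slpi passed the low-count filter only through the macrophage sums of mice 2 and 8, and Saa3 only through those of mice 2 and 5. Their p thus add nothing to the counts of a few barcodes. For this contrast the count was 2, 2, 16, 3, 4, 1 and 5 without mouse 1, 2, 4, 5, 6, 8 and 9, and 0 without mouse 3.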

How the data were processed

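Libraries were made by Drop-seq, a droplet method in which beads tag the RNA of each cell, and sequenced on a HiSeq 2500 with 101 cycles, per the labels' protocols, and demultiplexed with bcl2fastq 2.19, per the deposited readme. The submitters' processing notes name mm10 and Seurat. For aligner, counter and barcode filter the answer is not given in the sources used here. Raw UMI counts were deposited by the authors per gene and barcode for each mouse, with 0 per-sample columns left unused. Each mouse is a separate library.

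The barcodes and all gene lists were chosen with earlier results of these data known. Counts of macrophage barcodes were summed per mouse where at least 5 were present, which leaves out mouse 7. Genes that passed edgeR's low-count filter were tested with its quasi-likelihood test over all 3 groups (edgeR 4.0.16, R 4.3.3, TMM scaling, Benjamini-Hochberg adjustment over 666 genes). DESeq2 1.42.0 was an alternative. The steps were tested on simulated data. Shares were compared over mice by exact two-sided permutation tests, 32 in all, with adjustment over them. Intervals and floors (3 UMIs) cover counting error only. No doublet caller was run, and an alternative left out barcodes above the 95th percentile of UMIs. Ratios of macrophage to other barcodes were ranked with a pseudocount of 50 CPM among genes with at least 30 pooled UMIs, and the 20 highest were considered. Genes named in a contrast came from up to 10 called in each direction, else the 3 with the smallest p in that direction, and up to 4 members of each list with the highest mean CPM.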

Additional observations from a re-analysis of the deposited data

How the results depend on the processing

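Mice could not be paired between groups, because the replicate numbers run over all 9 mice and no number is shared between groups. The interaction test did pair the macrophage and the other barcodes of each mouse. The counts of genes called moved most. For AAVrh.10Null minus PBS (0 called) there were 7 with no filter on low counts, 6 with mice of at least 20 members, 6 with at least 6 rule UMIs, 3 with at least 4 rule genes, 7 without barcodes ending in an undetermined base, 1 with at least 10 rule UMIs, 3 without mice 2 and 8, 1 with upper-quartile scaling and 3 with only the groups compared. For AAVrh.10mCherry minus PBS (1) there were 2 with no filter, and for both vectors minus PBS (0) there was 1. For AAVrh.10mCherry minus AAVrh.10Null (2) there were 5 with no filter and 5 without undetermined bases, and 1 each without the deepest barcodes, without the 8 barcodes, with Clec4f-positive barcodes only, by DESeq2 and with only the groups compared, and 3 each with at least 6 rule UMIs and without mice 2 and 8. In the interaction for AAVrh.10Null minus PBS (0) there were 5 with no filter, 4 with at least 20 members, 1 with at least 6 UMIs, 6 with at least 4 genes, 4 without undetermined bases, 2 with at least 10 UMIs, 2 with Clec4f-positive barcodes only and 1 without mice 2 and 8. For AAVrh.10mCherry minus PBS (0) it was 1 each with no filter, without undetermined bases and without mice 2 and 8. For both vectors minus PBS (0) it was 4 with no filter, 1 with at least 4 genes and 1 without undetermined bases. For AAVrh.10mCherry minus AAVrh.10Null (0) it was 2, 2 and 1 with no filter, without undetermined bases and with Clec4f-positive barcodes only. The cause was not tested. Barcodes ending in an undetermined base were spread unevenly over mice. Leaving them out took PBS mice 1 and 4 from 5196 to 3875 and from 4798 to 3579 barcodes. AAVrh.10mCherry mice 3, 6 and 9 went from 3998 to 2942, 5583 to 4118 and 6393 to 4658. AAVrh.10Null mouse 5 went from 3997 to 2897. Mice 2 and 8, which held all Slpi UMIs of the set, went only from 7195 to 7188 and from 7188 to 7168. The part of this split in the calls was not tested.

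Some differences in shares, in percentage points and none past its test, changed sign. Without the deepest barcodes these were the thinned share of both vectors minus PBS (0.0141), MHC class II (0.111) and type I interferon (0.00298) of AAVrh.10mCherry minus PBS, and hepatocyte (-0.987) and endothelial (-0.0026) shares of AAVrh.10mCherry minus AAVrh.10Null. With at least 10 rule UMIs they were MHC class II (0.0418) and monocyte (0.034) of AAVrh.10mCherry minus PBS, the barcode share of AAVrh.10Null minus PBS (0.00996) and mitochondrial genes of AAVrh.10mCherry minus AAVrh.10Null (-0.395). Without the 8 barcodes they were the hepatocyte share of AAVrh.10mCherry minus AAVrh.10Null (-0.198) and the monocyte share of AAVrh.10Null (-0.0099) and both vectors (-0.0259) minus PBS. With Clec4f-positive barcodes only they were the endothelial share of AAVrh.10mCherry minus AAVrh.10Null (-0.00441), the thinned share of AAVrh.10Null minus PBS (-0.0227) and the monocyte share of both vectors minus PBS (-0.0197). Thinning to 1000 UMIs, over 20 random draws, gave 0.181 for both vectors minus PBS. That depth left out barcodes unevenly: 6458 of 7195 in mouse 2, 4397 of 5583 in mouse 6 and 5820 of 7188 in mouse 8. In mouse 1 it left out 1 of 5196, and in mouse 7 both macrophage barcodes were left out. The type I interferon share of both vectors minus PBS was -0.00966 without undetermined bases. Prg4 in the interaction of both vectors minus PBS reversed to -1.60 without mice 2 and 8.

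Leaving out each mouse in turn gave, for AAVrh.10mCherry minus PBS, -0.219 to 0.13 (thinned share), -0.0559 to 0.0198 (monocyte), -0.167 to 0.0406 (type I interferon), -0.408 to 0.253 (MHC class II) and 1 to 2 calls. For AAVrh.10Null minus PBS it gave -0.116 to 0.233 (thinned share), -0.0213 to 0.177 (type I interferon), -0.609 to 0.0525 (MHC class II), 1 to 8 calls (0 without mouse 7, which is in no sum) and 0 to 16 interaction calls. For both vectors minus PBS it gave -0.167 to 0.181 (thinned share), -0.000974 to 0.0747 (monocyte), -0.0916 to 0.107 (type I interferon), -0.509 to 0.153 (MHC class II), 0 to 1 calls and 0 to 1 interaction calls. For AAVrh.10mCherry minus AAVrh.10Null it gave -0.00402 to 0.0246 (endothelial), -0.0286 to 0.435 (MHC class II), -1.17 to 1.39 (hepatocyte), -0.523 to 5.43 (mitochondrial), 1 to 5 calls and 0 to 1 interaction calls. Requiring 20 members could not be fitted for the contrasts with AAVrh.10mCherry. The settings of at least 10 rule UMIs, without mice 2 and 8, without the 8 barcodes and with Clec4f only were chosen after seeing the data. Depth limits the expression results, since 11 to 46 barcodes a mouse left 666 genes to test.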
